A study of Homo sapiens with 4 samples.

Results

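Broad m6A peaks were defined as the peaks of 1000 bp or longer in the lists obtained by MeRIP-seq (immunoprecipitation of RNA fragments with an antibody to N6-methyladenosine, followed by sequencing) from H1975 cells, a human lung adenocarcinoma cell line. Of 9441 peaks of the control library (NC-sh), 765 were broad, and of 12252 peaks of the METTL3 knockdown library (METTL3-sh), 910 were broad, which gave 1675 of 21693 peaks in all. The cells had been given lentiviral shRNA for 48 h, a control shRNA in NC-sh and an shRNA against METTL3 in METTL3-sh. Each condition had 1 Input and 1 MeRIP library (4 samples), and the peak lists belong to the MeRIP libraries. The design text of the series speaks of 3 replicates per group, whereas the sample labels hold a single library of each kind for a condition. No difference between the conditions could therefore be tested, no replicate was compared, and each interval given is a 95% interval for counting error only. The peaks were chosen by their length, and lengths are therefore given as a description. Pileup and fold enrichment come from the same peak call and are also descriptions.

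The name of each peak in both lists begins with H1299, another lung cancer line, whereas the labels give H1975 for all samples. The conditions were taken from the labels. Neither the level of METTL3 RNA nor the cell line could be read from peak lists, and both were not analysed here. The shRNA against METTL3 targeted the sequence shown here, which defines the knockdown and is written in lower case 5′ to 3′.
METTL3 shRNA target: gctgcacttcagacgaattat

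Of the chemical marks found inside mRNA, m6A is the most abundant. It is written by a complex in which METTL3 is the catalytic subunit, and it is read by proteins such as those of the YTH family. Methylated adenosines are known to gather in long internal exons and around stop codons. A MeRIP peak covers a modified site and the length of the RNA fragments around it, so that a peak much longer than a fragment can hold several neighbouring sites. The peak caller joins enriched stretches that lie close together and reports the summit, the base with the most reads, as the height of the whole peak.

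Broad peaks made up 8.10% of the NC-sh list (7.57–8.67, Wilson) and 7.43% of the METTL3-sh list (6.98–7.91). They covered 1.05 of 4.78 Mb of peaks in NC-sh (21.9%) and 1.26 of 5.93 Mb in METTL3-sh (21.3%). The METTL3-sh list held 1.19 times as many broad peaks (1.08–1.31) and 1.30 times as many peaks of all lengths, so that broad peaks took a slightly smaller share of the longer list. The median broad peak was 1245 bp in NC-sh (quartiles 1097 and 1509) and 1253.5 bp in METTL3-sh (1108 and 1514). Lengths of 2000 bp or more were reached by 52 and 66 peaks, and lengths of 3000 bp or more by 4 and 9. The longest peak had 4825 bp in NC-sh and 6923 bp in METTL3-sh. At the limit, the shortest broad peaks had 1000 bp in both lists and the longest peaks left out had 998 and 999 bp. Peaks just inside it (1000–1049 bp, 99 and 114 peaks) had a median fold enrichment of 14.9 for NC-sh and 16.8 for METTL3-sh, and peaks just outside it (950–999 bp, 133 and 140 peaks) had 14.2 and 15.7. Medians on both sides of the limit were thus close.

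**Figure D1:**
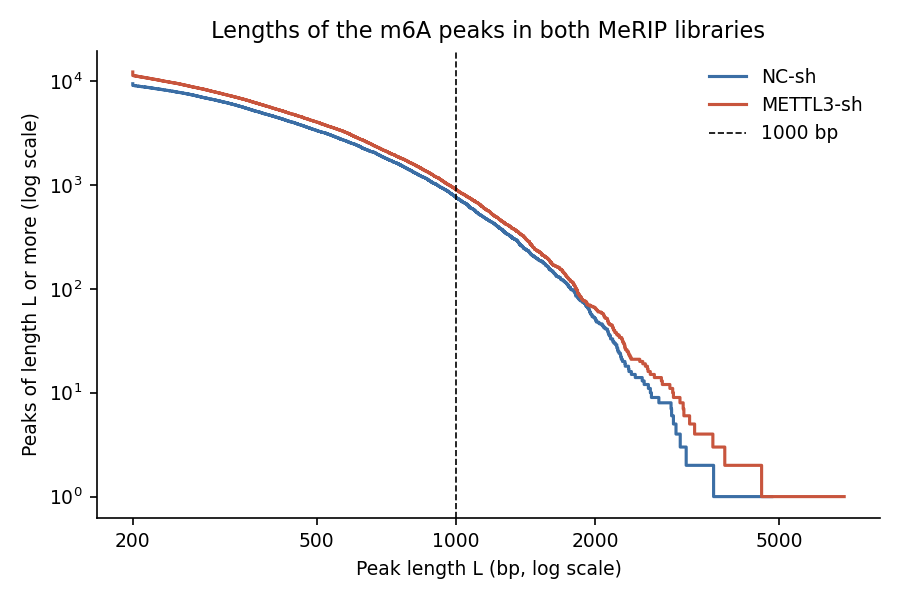
Number of peaks (log axis) of at least a given length in bp (log axis) in the NC-sh and METTL3-sh lists. The METTL3-sh line lies above the NC-sh line at the limit of 1000 bp (910 against 765 peaks) and ends at 6923 bp against 4825 bp.

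Nearly all broad peaks had a counterpart in the other library. An overlap of 1 bp or more with a METTL3-sh peak was found for 730 of 765 broad NC-sh peaks (95.4%, 93.7–96.7), against 76.2% of all NC-sh peaks. In the other direction it was found for 850 of 910 broad METTL3-sh peaks (93.4%, 91.6–94.8), against 58.6% of all METTL3-sh peaks. Among peaks under 1000 bp the shares were 74.5% of 8676 and 55.9% of 11342. The summit itself lay inside a peak of the other list for 94.9% and 92.1% of broad peaks, and for 75.6% and 57.7% of all peaks. Longer peaks have more bases with which to overlap, and what length adds to these shares was not tested. Among short peaks, those with a pileup at or above the broad median overlapped in 1234 of 1287 cases in NC-sh (95.9%) and in 1279 of 1402 cases in METTL3-sh (91.2%). This group holds no low peaks, whereas the broad peaks were of all heights.

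The counterpart was in most cases a single broad peak. Of the broad NC-sh peaks, 541 (70.7%) overlapped 1 METTL3-sh peak that was also broad, 110 (14.4%) overlapped 1 shorter peak, 79 (10.3%) overlapped 2 or more peaks and 35 (4.58%) overlapped none. Of the broad METTL3-sh peaks, 544 (59.8%) overlapped 1 broad NC-sh peak, 226 (24.8%) overlapped 1 shorter peak, 80 (8.79%) overlapped 2 or more and 60 (6.59%) overlapped none. Splitting was thus seen in both directions. A single shorter counterpart took a larger share of the broad METTL3-sh peaks than of the broad NC-sh peaks, which describes these libraries only. Over peaks of all lengths, 1 counterpart under 1000 bp was found for 65.5% of the NC-sh list and 51.3% of the METTL3-sh list. These shares also count peaks without any counterpart, 23.8% and 41.4% of the lists. Their order therefore does not show how often a counterpart, where there was one, was short. A single broad counterpart, at 9.56% and 6.37% of these lists, kept the order seen for broad peaks. When broad peaks of both lists were joined into loci, 568 of 1102 loci (51.5%) had a broad peak in both libraries, 194 (17.6%) in NC-sh alone and 340 (30.9%) in METTL3-sh alone. Loci counted for a single library include those where the peak of the other library was under 1000 bp. A broad peak of the other list was overlapped by 571 broad NC-sh peaks (74.6%) and by 570 broad METTL3-sh peaks (62.6%). Over peaks of all lengths, besides those with a single broad counterpart, 0.318% in NC-sh and 0.212% in METTL3-sh overlapped several peaks with a broad one among them.

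**Figure D2:**
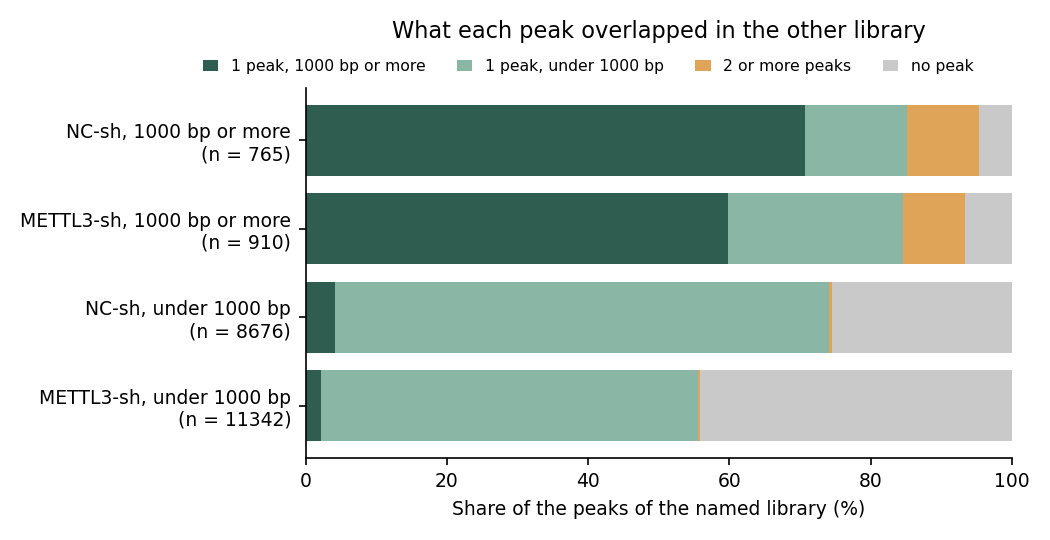
Percent of peaks of each list that overlapped, in the other list, 1 peak of 1000 bp or more, 1 shorter peak, 2 or more peaks or none, as stacked bars. A single broad counterpart is the largest share for broad peaks of NC-sh (70.7%) and METTL3-sh (59.8%).

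Broad peaks stood on far more reads than short ones. Pileup is the number of MeRIP reads over the summit, scaled by 1 factor per library, and was compared within a library. In NC-sh the median pileup of broad peaks was 230 (quartiles 111 and 464, range 17.0–16390), which corresponded to 703 reads at the summit, against 48.4 for peaks under 1000 bp, a ratio of 4.75. In METTL3-sh it was 251 (quartiles 126 and 515, range 14.5–7863), or 691 reads, against 42.0, a ratio of 5.98. Height therefore went with length in both libraries, although the spread within broad peaks was wide. Median pileup rose over the length classes 1000–1249, 1250–1499, 1500–1999 and 2000 bp or more, from 193 through 246 and 270 to 360 in NC-sh and from 208 through 246 and 345 to 369 in METTL3-sh. Fold enrichment, the ratio of the summit pileup to the local expectation, rose less between short and broad peaks, from a median of 9.82 to 16.6 in NC-sh and from 9.51 to 17.5 in METTL3-sh. Among broad peaks, 249 of 765 (32.5%) were in the top 10% of the NC-sh list by pileup and 333 of 910 (36.6%) in that of the METTL3-sh list. Low values occurred too. A fold enrichment under 8 was found for 72 broad NC-sh peaks (9.41%) and 77 broad METTL3-sh peaks (8.46%), against 31.3% and 34.6% of shorter peaks.

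**Figure D3:**
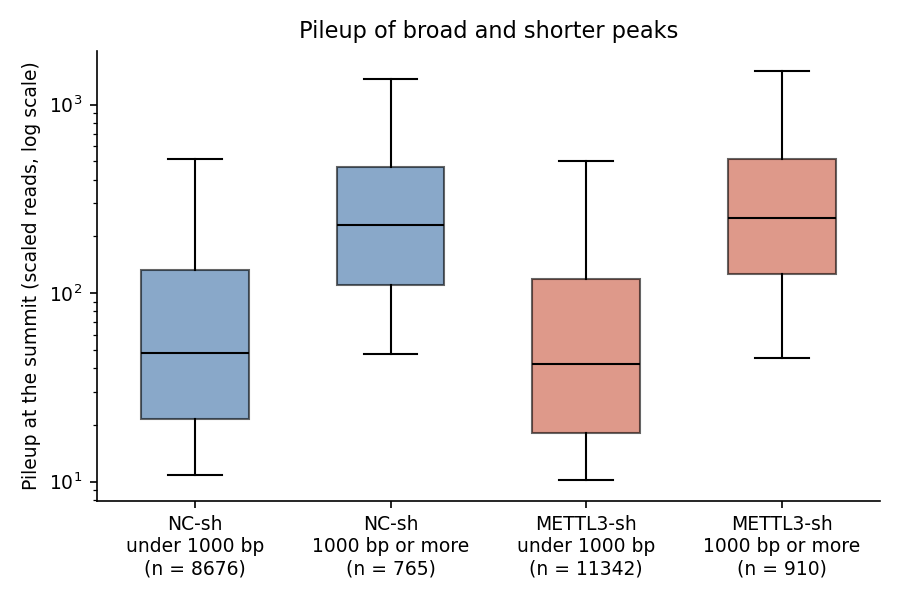
Pileup at the summit (scaled reads, log axis) of peaks by length class in each library; boxes give quartiles with the median and whiskers the 5th to 95th percentile. The median of broad peaks was 230 for NC-sh and 251 for METTL3-sh, against 48.4 and 42.0 under 1000 bp.

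The highest broad peaks lay at the same loci in both libraries, other than that of chr14:105477296-105478363. The broad peak with the highest pileup in NC-sh lay at chr14:105477296-105478363 (hg19, 1068 bp) with a pileup of 16390, and its METTL3-sh counterpart had 14089 over 975 bp and so fell just under the length limit. At chr17:48166459-48167603 the pileup was 11629 for NC-sh and 7863 for METTL3-sh, and at chr19:3958457-3959526 it was 7977 and 7066. These peaks were only slightly longer than the limit and were lower in METTL3-sh. The long peak at chr8:144993585-144996140 (2556 bp) went the other way, with 5512 for NC-sh and 6342 for METTL3-sh, and it had more reads at the summit there too (16840 and 17442). At chr6:83075243-83076525 (1283 bp) the pileup was 4709 and 4920, but reads at the summit were 14387 and 13531 and the fold enrichment 102 and 86.3, so that the order turned with the scaling. The 5 highest broad METTL3-sh peaks were the counterparts of those named, other than that of chr14:105477296-105478363, and the peak at chr14:105404633-105406001, whose pileup was 5361 against 4581 in NC-sh.

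Splitting was most frequent for the longest peaks, and split peaks were lower. Of the broad NC-sh peaks 10.3% (8.36–12.7) overlapped 2 or more METTL3-sh peaks, against 1.14% of all NC-sh peaks, and of the broad METTL3-sh peaks 8.79% (7.12–10.8) overlapped 2 or more NC-sh peaks, against 0.922%. A peak must be long to hold more than 1 peak, so that these shares rest in part on the choice by length. Over the 4 length classes the share in NC-sh was 7.29% (28 of 384), 5.95% (11 of 185), 18.1% (26 of 144) and 26.9% (14 of 52). In METTL3-sh it was 5.32% (24 of 451), 7.96% (18 of 226), 12.6% (21 of 167) and 25.8% (17 of 66). When both lists were limited to peaks with a fold enrichment of at least 12, the share over all broad peaks was 3.89% for NC-sh and 2.76% for METTL3-sh. This filter also removed weaker pieces from the other list, which lowers the share by itself. Whether stronger broad peaks split less often was not tested. Split peaks had a lower median pileup than the broad peaks of their list with a single counterpart, 139 against 262 in NC-sh and 178 against 269 in METTL3-sh, although they were longer (median 1500 against 1236 bp, and 1464.5 against 1237.5 bp). In 30 of the 79 split NC-sh peaks and 26 of the 80 split METTL3-sh peaks a piece was itself 1000 bp or longer. In the other 49 and 54, all pieces were shorter.

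The pieces covered most of the peak they overlapped. Their median cover was 82.5% of the own length for NC-sh and 80.0% for METTL3-sh peaks. The gaps between pieces had a median of 206.5 bp (150–623, 80 gaps) and 210 bp (155–759, 85 gaps), so that a short stretch without a peak separated them. In the numbering of the other list, a number was missing within 1 of the 80 gaps (1.25%) and 2 of the 85 (2.35%). Between all neighbouring peaks of these lists, at any distance, the share was 37.8% in METTL3-sh and 35.9% in NC-sh. The smallest spacing of listed peaks was 151 bp in NC-sh and 150 bp in METTL3-sh, so that many of the gaps were too short for a further peak. The shares within gaps therefore cannot be set against those at any distance, and do not show whether peaks were removed there. The split peaks with 3 pieces differed widely in pileup. In METTL3-sh, 3 of them were among the longest peaks, with pileups of 412, 323 and 402, and the others were lower. At chr5:140347265-140349010 an NC-sh peak of 1746 bp (pileup 139) overlapped METTL3-sh peaks of 363, 372 and 464 bp. At chr19:53995008-53996536 a METTL3-sh peak of 1529 bp (pileup 57.1) overlapped NC-sh peaks of 282, 350 and 448 bp, and at chr13:67801095-67802587 one of 1493 bp (pileup 54.9) overlapped peaks of 346, 247 and 347 bp.

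Counterparts were often shorter. Choosing peaks by their length in a list favours shorter counterparts in another, in both directions. Among the broad peaks with a counterpart, the longest one was shorter than the own peak for 397 of 730 NC-sh peaks (54.4%), against 41.1% of all NC-sh peaks with a counterpart, and for 604 of 850 METTL3-sh peaks (71.1%), against 56.6% of all. It was longer for 327 (44.8%) and 240 (28.2%). The difference was small in most cases, with a median ratio of the counterpart to the own length of 0.993 (0.987–0.999) for NC-sh and 0.943 (0.931–0.956) for METTL3-sh peaks. A counterpart under 1000 bp was found for 159 NC-sh peaks (21.8%, 18.9–24.9) and 280 METTL3-sh peaks (32.9%, 29.9–36.2), and the median own length of these peaks was 1129 and 1163 bp, close to the limit. Where the only counterpart was under 1000 bp, a number was missing from the numbering of the other list directly before or after it, at any distance, for 84 of 110 (76.4%) in METTL3-sh and 158 of 226 (69.9%) in NC-sh, against 60.8% and 58.3% of all peaks of these lists. A missing number may be a peak removed after calling, and its part in the shorter lengths was not tested. The longest counterpart had under 50% of the own length for 50 of 730 NC-sh peaks (6.85%) and 102 of 850 METTL3-sh peaks (12%). This share was not computed over all peaks with a counterpart, so broad peaks are not compared with their list here. Some of the 50 and 102 were split peaks whose pieces together covered more. The strongest cases were an NC-sh peak of 1709 bp at chr1:214813098-214814806 with a METTL3-sh peak of 381 bp, and a METTL3-sh peak of 2107 bp at chr2:95813825-95815931 with an NC-sh peak of 245 bp. Reads at the summit were 315 in NC-sh against 313 in METTL3-sh for the first of these, and 109 against 154 for the second.

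To treat both libraries alike, peaks that each overlapped only the other were paired, and the 658 pairs (of 6863) with a mean length of 1000 bp or more were compared. Of these, 254 (38.6%, 35.0–42.4) were shorter in METTL3-sh, 398 (60.5%) were longer and 6 had the same length, against 41.6% shorter among all pairs. The median length was 1207.5 bp in NC-sh and 1266 bp in METTL3-sh, and the median log2 length ratio was 0.02. These pairs, which leave out split peaks and peaks without a counterpart, were thus more often longer than shorter in the METTL3-sh library, at a share close to that of all pairs. A length shorter by at least 1.5 times in METTL3-sh was found for 16 pairs (2.43%), against 4.65% of all pairs, and a longer one for 46 (6.99%), against 9.79%.

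**Figure D4:**
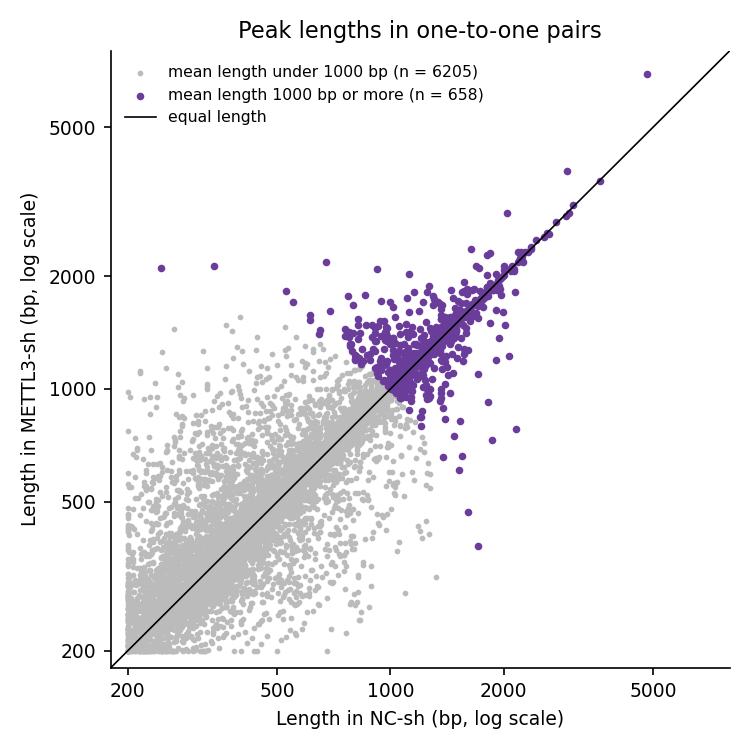
Length in METTL3-sh against length in NC-sh (bp, log axes) of the one-to-one pairs, with the line of equal length. Of the 658 pairs with a mean length of 1000 bp or more, 398 lie above the line and 254 below it.

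The pileup of these pairs was a little higher in METTL3-sh. The median log2 ratio of METTL3-sh to NC-sh was 0.27 (0.24–0.29), against 0.28 over all pairs, and 0.11 against 0.13 when reads were counted without the scaling of each library. The factors by which the pileups were scaled differed by 0.15 on the log2 scale. The pileup was at least 2-fold higher in METTL3-sh for 17 pairs (2.58%), against 5.86% of all pairs, and at least 2-fold lower for 3 (0.456%), against 0.656%. It was lower by any amount for 138 (21.0%), against 24.2% of all pairs. The median change in height of these pairs was thus close to that of all pairs, with a smaller share of large rises and a share of large falls near that of all pairs. The largest fall was at chr18:76756815-76757913, where the pileup was 403 for NC-sh and 125 for METTL3-sh, a log2 ratio of -1.68. The fold enrichment at this peak went from 18.3 to 27.1, since the local expectation was 21.0 scaled reads for NC-sh and 3.66 for METTL3-sh. The fold enrichment was higher in METTL3-sh in 3 of the 5 largest falls in pileup and in 4 of the 5 largest rises. The largest rise was at chr3:125647379-125648383, with a pileup of 61.9 and 183, and was the exception, with a fold enrichment of 41.6 and 36.9. At chr2:111965225-111966253 both measures were higher in METTL3-sh, with a pileup of 47.8 and 108 and a fold enrichment of 8.13 and 32.2.

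The median distances between the ends of paired peaks differed by a few bp from those of all pairs, and for the right ends the direction depended on which pairs were counted as broad. The starts of the 658 pairs were a median of 33 bp apart (29–38), against 25 bp (24–27) in all pairs, and the ends 32 bp (26–36), against 27 bp (26–28). In the 518 pairs in which both peaks were broad, the starts were 28 bp (23–32) and the ends 24 bp (22–29) apart. At least 1 end lay within 10 bp of that of the counterpart in 279 of the 658 pairs (42.4%), against 44.6% of all pairs, and both ends did so in 37 (5.62%), against 8.20%. The summits of these pairs were a median of 14 bp apart, against 18 bp in the 6205 shorter pairs. A summit that moved by 200 bp or more was found in 56 pairs (8.51%), against 3.95% of all pairs. Longer peaks have more room for such a move. The summit lay in the outer 25% at either end, that is in 50% of the length, for 47.6% (44.1–51.1) of broad NC-sh peaks and 43.2% (40.0–46.4) of broad METTL3-sh peaks, so that summits did not lean towards the ends. The share was 9.43% and 12.2% for shorter peaks, and the cause of this difference was not tested. In genome orientation, 184 were in the first and 180 in the last 25% in NC-sh, and 183 and 210 in METTL3-sh. In bp, the median distance from the summit to the nearer end was 343 and 356.5, against 154 and 145 for shorter peaks.

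The 12 longest peaks of each list lay at 18 separate loci, and 6 of the 12 in NC-sh overlapped one of the 12 in METTL3-sh. All 12 of each list overlapped a peak of the other list, and 3 of those in NC-sh and 5 of those in METTL3-sh were split there. Gene names need an hg19 annotation and were not analysed here, so that the loci are given by their hg19 positions. The longest peak of both lists was at the same locus. It spanned chr14:105414428-105419252 in NC-sh (4825 bp, pileup 2689, fold enrichment 8.70) and chr14:105412289-105419211 in METTL3-sh (6923 bp, pileup 3063, fold enrichment 8.80). Its summit was at the same base in both libraries, and the additional length was on the left. Peaks are numbered within each list, and the number 4276 was missing in NC-sh between the peak ending at 105412082 and the long peak. The second longest NC-sh peak, chr11:62289363-62292974 (3612 bp, pileup 2054), had a METTL3-sh counterpart that began at the same base and had 3599 bp (pileup 2787).

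Several of the longest peaks kept their extent closely. The NC-sh and METTL3-sh lengths were 3059 and 3104 bp at chr8:124265440-124268498, 2995 and 2946 bp at chr8:144990223-144993217, 2930 and 2905 bp at chr9:6012263-6015192, and 2610 and 2606 bp at chr13:45147328-45149937. At chr10:106072883-106075632 they were 2750 and 2798 bp, and at chr11:73020238-73022873 they were 2636 and 2598 bp. In the same order, pileups were 549 and 574, 3008 and 4289, 300 and 296, 471 and 454, 745 and 1000, and 712 and 941. Reads at the summit, in this order, were 1677 and 1579, 9192 and 11795, 917 and 815, and 1438 and 1248. For the peaks on chromosomes 10 and 11 they were 2277 and 2751, and 2176 and 2587. At chr8:124265440-124268498 the order of the libraries thus turned with the scaling. At chr11:73020238-73022873 height differed more than length.

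Other long peaks were whole in a single library. In NC-sh, the peak at chr12:32133801-32136951 (3151 bp) overlapped METTL3-sh peaks of 755 and 2155 bp, that at chr8:94745641-94748562 (2922 bp) peaks of 1585 and 1040 bp, and that at chr6:56965471-56968120 (2650 bp) peaks of 291 and 2208 bp. In METTL3-sh, the peak at chr1:197069777-197074364 (4588 bp, fold enrichment 42.0) overlapped NC-sh peaks of 1442 and 2271 bp, and that at chr1:27873803-27876857 (3055 bp) peaks of 1262 and 797 bp. Each of these peaks was divided into 2 in the other library. Division into 3 was found for the METTL3-sh peaks at chr19:40539185-40542470 (3286 bp, NC-sh peaks of 795, 755 and 1400 bp) and chr5:10654297-10657501 (3205 bp, NC-sh peaks of 859, 1158 and 306 bp). The METTL3-sh peak at chr15:40913243-40916357 (3115 bp) overlapped NC-sh peaks of 1122, 899 and 2092 bp, but the last of these ran on to position 40917733 and also overlapped a further METTL3-sh peak of 1223 bp, so that each library was whole where the other was divided. At 2 further loci a single counterpart was shorter in NC-sh, namely 2957 against 3819 bp at chr20:62193532-62197350 and 2047 against 2957 bp at chr16:89984437-89987393.

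**Figure D5:**
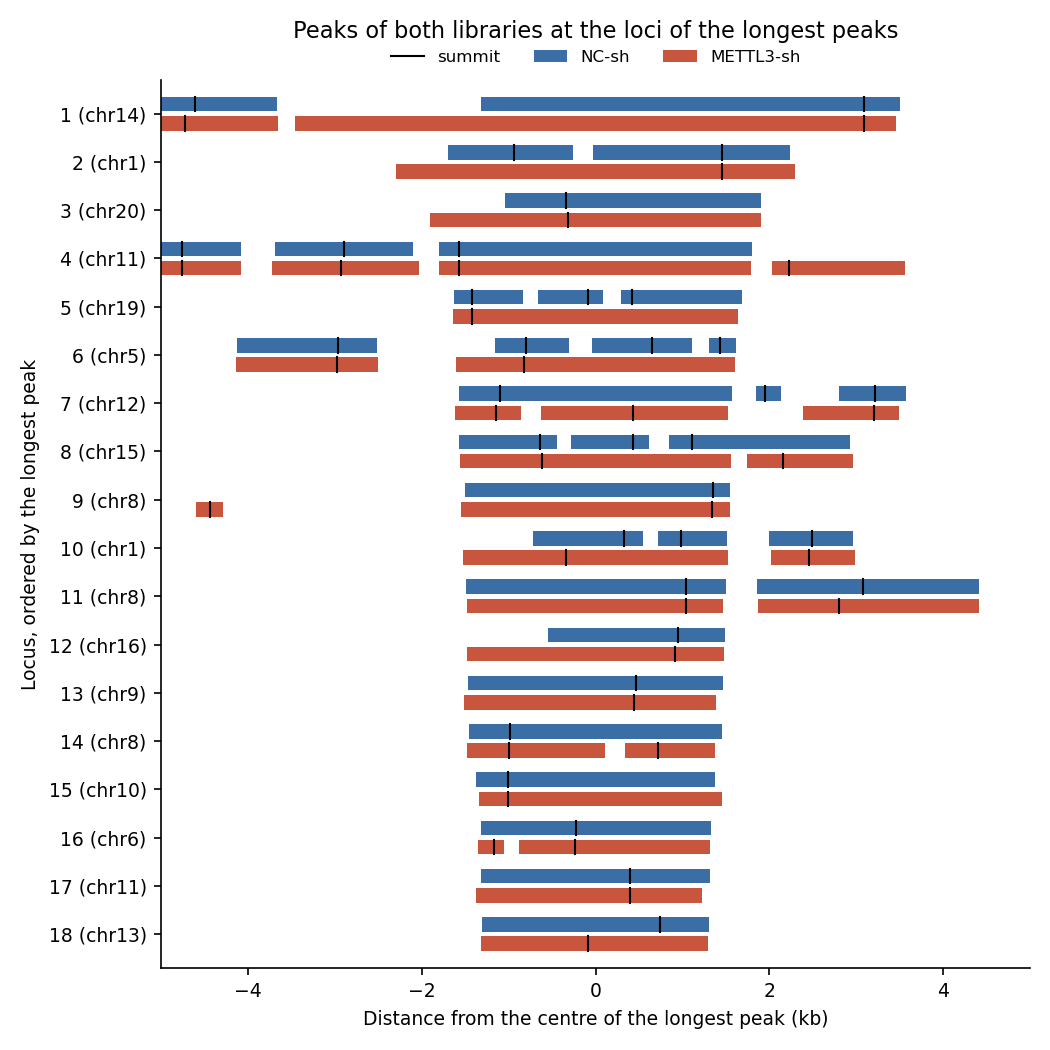
Peaks of NC-sh and METTL3-sh at the loci of the longest peaks, as bars along the distance in kb from the centre of the longest peak, cut at 5 kb on each side. Bars of both libraries share their ends at several loci, and at others a single bar in a library faces 2 or 3 bars in the other.

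Broad peaks without a counterpart had lower enrichment than the others. The median fold enrichment was 8.42 for the 35 in NC-sh, against 16.9 for broad peaks with a counterpart, and 8.26 for the 60 in METTL3-sh, against 18.5. Both lists stop at a fold enrichment of 6. A value under 8 was found for 16 of the 35 (45.7%) and 29 of the 60 (48.3%), against 7.67% and 5.65% of broad peaks with a counterpart. A value of at least 12 was found for 9 (25.7%) and 8 (13.3%), up to 18.4 and 18.0. All 284 broad NC-sh peaks and all 378 broad METTL3-sh peaks with a fold enrichment of 20 or more had a counterpart, as did 99.3% and 95.6% of shorter peaks in that class. At a fold enrichment of 6–8 the shares were 77.8% of broad and 53.5% of shorter NC-sh peaks, and 62.3% and 28.2% in METTL3-sh, so that broad peaks overlapped more often also within this class. Their pileup was not low in all cases. The longest without a counterpart in NC-sh, chr9:139368601-139370239, had 1639 bp, a pileup of 413 and a fold enrichment of 6.90, and the longest in METTL3-sh, chr22:42607070-42609758, had 2689 bp, a pileup of 201 and a fold enrichment of 6.06. The nearest peaks of the other list on either side had consecutive numbers for only 1 of the 35 and 1 of the 60. The share was 20.4% of 2212 and 30.6% of 5007 shorter peaks without a counterpart. For the others a number was missing somewhere between these neighbours, at any distance, and its place is not known. As neither list holds peaks under 6 and removed peaks cannot be placed, a broad peak without a counterpart is not shown to be absent from the other library.

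The share of peaks that were broad was compared over 23 chromosomes with at least 50 peaks. It was highest on chromosome 19 in both libraries, with 81 of 696 peaks in NC-sh (11.6%, 9.46–14.2) and 88 of 814 in METTL3-sh (10.8%, 8.86–13.1). Chromosome 20 in NC-sh (11.3%, 7.80–16.0) and chromosome 16 in METTL3-sh (10.2%, 7.81–13.2) came close. The share was lowest on chromosome X, with 11 of 246 (4.47%) and 14 of 314 (4.46%). Another broad peak lay within 10000 bp of 70 broad peaks in NC-sh (9.15%, in 32 runs) and 73 in METTL3-sh (8.02%, in 33 runs). A neighbour of any length within this distance was as frequent for broad as for shorter peaks, at 43.9% against 42.7% in NC-sh and 48.5% against 46.9% in METTL3-sh. The run with the most sequence was at chr14:105404375-105419252 in NC-sh, where 4 broad peaks covered 10281 bp, and at chr14:105404633-105419211 in METTL3-sh, where 4 covered 12214 bp. This run holds the longest peak of both lists and a peak among the 5 highest in METTL3-sh. At chr11:62285337-62292974 a run of 3 broad NC-sh peaks covered 6951 bp, and the METTL3-sh run at chr11:62285341-62294737 had 4 that covered 8576 bp.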

How the data were processed

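MeRIP-seq of H1975 cells was performed with 1 Input and 1 MeRIP library per condition, and a peak list of each MeRIP library was deposited by the authors. The submitters' processing notes name bcl2fastq, TopHat2 2.0.13, MACS2 2.1.0.20151222 and the build hg19, without their roles or settings. Lists were used as deposited. The deposited pileup is a signal, in MeRIP reads over the summit times a factor that differs between libraries (0.327 per read in NC-sh, 0.364 in METTL3-sh). The deposited fold enrichment is a ratio, the pileup over the local expectation, which was computed here with 1 added to both. The deposited −log10 p-values and −log10 q-values were used only as filters. Library totals are not given in the sources used here, so depth is described by reads at the summit. There were 0 columns without a sample.

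Peaks of 1000 bp or more were compared with the other list by an overlap of 1 bp or more. A split is an overlap with 2 or more peaks. The 95% intervals are Wilson's for shares, from order statistics for medians and from Poisson errors for the ratio of counts. No test was made, as each condition had 1 library. Regions were named by rank: in each list the 12 longest, and the 5 broad peaks with the highest pileup, the most pieces, the lowest ratio of counterpart to own length or the greatest length without a counterpart, and the 5 largest rises and falls of pileup in pairs. The text gives a selection of these. The broad peaks, these rules and the alternatives were chosen with earlier results of these data known. Gene names, exon context, GGAC motifs and cell type markers need an hg19 annotation or genome and were not analysed here. Calculations used Python 3.11.15, numpy 2.4.6, pandas 2.3.3, scipy 1.17.1 and matplotlib 3.10.9. The overlap step was tested on simulated data from 9441 peaks, in which 9441 overlap numbers and 232 of 232 splits were right.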

Additional observations from a re-analysis of the deposited data

How the results depend on the processing

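Alternatives were other length limits, stricter filters on both lists, equal numbers of peaks, an overlap of at least 50% of the shorter peak, merging of neighbouring peaks, and other measures. Of 129 alternative values, 42 moved. The other 87 stayed within 1.5 times the reported value for counts of peaks, and within the 95% interval of the reported value for shares and medians. With a limit of 800 bp NC-sh had 1380 and METTL3-sh 1629 broad peaks, the overlap was 91.1% in METTL3-sh, splits were 6.59% and 6.14%, counterparts under the limit 17.3% and 27.4%, and the median pileup 201 and 208. With a limit of 1500 bp there were 196 and 233, the overlap was 96.9% in NC-sh, splits were 20.4% and 16.3%, shorter counterparts 31.1% and 39.6%, the median pileup 283 and 346, and the median log2 length ratio of pairs 0.01 (0.0104). With a −log10 q of at least 36.6, the median of both lists, the overlap was 88.9% in METTL3-sh, splits were 6.23% and 4.67%, shorter counterparts 28.7% in METTL3-sh and the median pileup 254 in NC-sh. With a fold enrichment of at least 12 the overlap was 86.1% and 80.0%, splits were 3.89% and 2.76%, shorter counterparts 28.8% in METTL3-sh and the median pileup 272 and 288. By the summed length of all counterparts, 18.4% and 29.4% were under 1000 bp. Fold enrichment in place of pileup gave medians of 16.6 and 17.5 and a median log2 ratio of 0.10 in pairs, and reads at the summit gave 0.11. Merging within 100 bp changed nothing, as the smallest gaps were 151 and 150 bp. Alternatives chosen after seeing the data were merging within 200 bp, which gave splits of 8.36% in NC-sh, merging within 500 bp, which gave splits of 3.10% and 4.77% and a median pileup of 183 and 198, and the summit inside a peak of the other list.

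The order of the libraries in the share of split peaks, higher in NC-sh as reported, turned when peaks within 500 bp were merged. No paired analysis was possible because only 1 MeRIP library stood for each condition and no result came from a test. The alternatives for genes and exon context were not run, as they need an hg19 annotation. With 1 library per condition and unknown library totals, a difference between the lists cannot be told apart from a difference in depth or enrichment between these libraries.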
